A study of Rattus norvegicus with 6 samples.

Results

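The data describe the 160 Mb of rat chromosome 1 that lie below 160 Mb (build rn5) as contact partners of a gene promoter on chromosome 13. The region is defined as all restriction fragments of chromosome 1 whose listed start is below 160000000, and it holds 45929 of the 759990 fragments outside chromosome 13, which is 6.04%. The last fragment of the region runs from 159991346 to 160004883. The bound was chosen by the scores along chromosome 1, whose levels of capture were already known, so the level of the region against the rest of the genome is a description and carries no test.

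The libraries came from cultured cardiac endothelial cells, the cells that line the vessels and chambers of the heart. Cells of both sexes were pooled, were used at passage 2 and were fixed with 2% formaldehyde for 10 min at room temperature. There were 2 strains with 3 libraries each. SS/JrHsdMcwi, called SS here, is a salt-sensitive inbred rat, and SS-13BN/Mcwi, called SS13BN, is a consomic strain that has the Brown Norway chromosome 13 in the SS background. The promoter used as the viewpoint therefore differs in origin between strains, while chromosome 1 is of SS origin in both. The labels do not name separate animals or cultures behind the libraries of a strain, so p-values measure only how these libraries vary, and that variation may be technical. No expression was measured, so the cell type could not be checked against markers.

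In 4C-seq, fixed chromatin is digested, neighbouring ends are ligated, and everything joined to 1 chosen viewpoint is amplified and read. Contacts with other chromosomes are far sparser than those around the viewpoint, and mostly reflect which chromosome territories and which active or inactive compartments lie near each other in the nucleus. A single trans contact is therefore read as part of a stretch rather than as a loop. Gene names are not given for the stretches below, because no annotation or genome sequence of build rn5 was used here.

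The deposited score of a fragment on chromosome 1 is a z-score. For a running window that reaches 250 fragments to either side, it compares how many were captured with the captured share of the whole chromosome. A captured fragment is one found joined to the viewpoint at least once. The captured or not captured state of every fragment was solved from these scores, and every score on chromosome 1 was rebuilt from the solved states in each library. Relative capture, used below, is the captured share of a stretch divided by the captured share of all fragments outside chromosome 13 in the same library, so 1 is the level of the library. Depth differed between libraries: 93838, 75942 and 90358 fragments outside chromosome 13 were captured in SS 1 to 3, and 75366, 132426 and 66610 in SS13BN 1 to 3.

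The region was a low-contact part of the genome in every library. In SS 1 to 3, 10.7% (95% Wilson interval 10.5% to 11.0%), 8.62% (8.36% to 8.88%) and 10.5% (10.2% to 10.8%) of its fragments were captured. In SS13BN 1 to 3 these shares were 8.50% (8.25% to 8.76%), 14.7% (14.4% to 15.0%) and 7.72% (7.48% to 7.97%). The intervals cover counting error only. Divided by the library's own level, the 6 libraries lay close together, at 0.870, 0.862 and 0.884 in SS and 0.857, 0.844 and 0.881 in SS13BN, and the strains overlapped. The mean relative capture was 0.866 ± 0.0148 (SD, n = 6), against 1.19 ± 0.0135 (SD, n = 6) on chromosome 1 from 160 Mb. The region thus stood at 0.728 ± 0.00872 (SD, n = 6) times the level of the other part of its own chromosome, with a range of 0.712 in SS13BN 2 to 0.738 in SS13BN 3.

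Among whole chromosomes, only X, 14 and 17 had a lower mean than the region, at 0.748 ± 0.0219, 0.807 ± 0.0163 and 0.818 ± 0.0145 (SD, n = 6). Chromosome 2 was next above it, at 0.890 ± 0.0179 (SD, n = 6). Chromosome 1 as a whole stood at 1.01 ± 0.0132 (SD, n = 6), between its lower and upper parts. The scores of both parts are set against that common share. In the region, 31.5% ± 0.678 (SD, n = 6) of the scores were above 0, against 69.0% ± 2.32 (SD, n = 6) from 160 Mb onwards.

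The bound at 160 Mb did not mark a step at the scale of single windows. Windows of 500 kb just inside it, starting at 159000001 and 159500001, had a relative capture of 0.802 ± 0.178 and 0.921 ± 0.133 (SD, n = 6). The first windows outside it, starting at 160000001 and 160500001, had 1.15 ± 0.198 and 0.770 ± 0.245 (SD, n = 6). In 10 Mb segments, the last one inside stood at 0.797 ± 0.0350 and the first one outside at 0.995 ± 0.0475 (SD, n = 6).

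Capture within the region was uneven, and the same segments were high or low in both strains. Of the 16 segments of 10 Mb, 8 were below the library's level in all 6 libraries and 1 was above it in all 6. The highest was the segment from 50 to 60 Mb, with a relative capture of 1.12, 1.09 and 1.09 in SS 1 to 3 and 1.19, 1.07 and 1.10 in SS13BN 1 to 3. The next were the segments from 140 to 150 Mb, at 1.03 ± 0.0527, and from 30 to 40 Mb, at 1.0 ± 0.0585 (SD, n = 6). Both of these had libraries on either side of 1.

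The lowest segment ran from 60 to 70 Mb and directly followed the highest. Its relative capture was 0.532, 0.474 and 0.523 in SS 1 to 3 and 0.440, 0.453 and 0.529 in SS13BN 1 to 3. Every library there was below every library of the other 15 segments. The segments from 70 to 80 Mb and from 110 to 120 Mb came next, at 0.680 ± 0.0380 and 0.697 ± 0.0496 (SD, n = 6). The 6 libraries of the segments from 70 to 80 and from 110 to 120 Mb overlapped, so their order is not resolved.

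**Figure D1:**
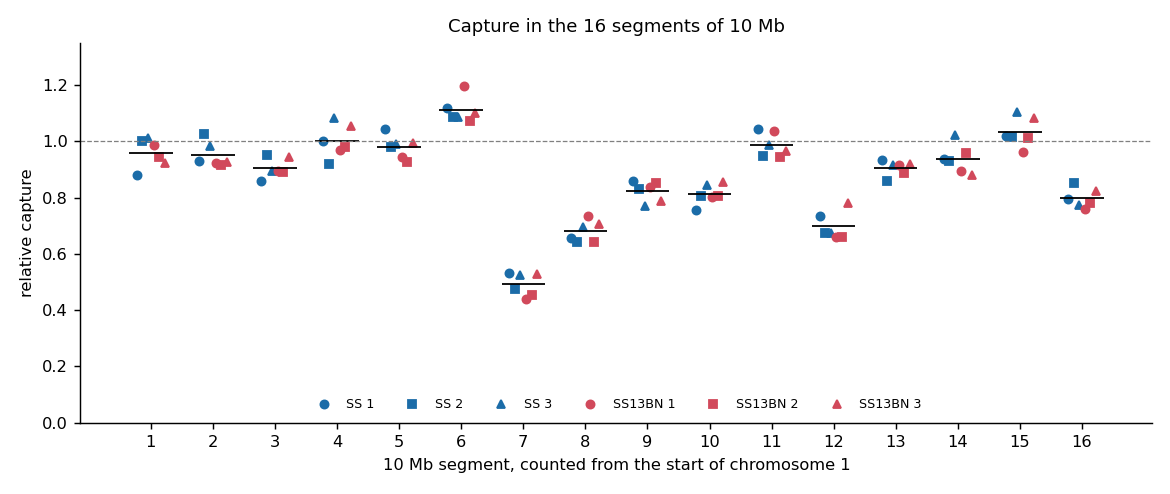
Relative capture (captured share divided by the library's captured share outside chromosome 13) in each of the 16 segments of 10 Mb, counted from the start of chromosome 1; points are the 6 libraries, black bars their means, and the dashed line the library level. The 7th segment, from 60 to 70 Mb, lies at 0.440 to 0.532, and the 6th, from 50 to 60 Mb, at 1.07 to 1.19.

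Grouped into neighbouring segments, a grouping chosen after the values were seen, the first 60 Mb stood at 0.982 ± 0.0183 (SD, n = 6), near the library's level. The stretch from 60 to 80 Mb fell to 0.578 ± 0.0280 (SD, n = 6) and held 14.9% of the region's fragments but 9.94% ± 0.335 (SD, n = 6) of its captured ones. From 80 to 110 Mb the level was 0.875 ± 0.0121, and from 120 to 150 Mb it was 0.957 ± 0.0310 (SD, n = 6). Without 60 to 80 Mb in numerator and denominator, the region's relative capture was 0.919 in SS and 0.907 in SS13BN, against 0.872 and 0.861 with it. The stretch from 60 to 80 Mb therefore accounted for part of the region's low level, and the remainder still lay below 1.

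Neighbouring windows resembled each other over a few Mb. The Spearman correlation between the relative capture of a 500 kb window and that of the next was 0.359 ± 0.0501 (SD over 6 libraries). It was 0.223 ± 0.0379 at 1 Mb, 0.152 ± 0.0421 at 2.5 Mb and 0.0185 ± 0.0391 at 5 Mb. These values are across windows of 1 library, which share its depth and are not independent. Across libraries, the 15 pairs correlated at 0.736 ± 0.0392 (SD) over the region's 317 windows, from 0.654 for SS 2 and SS13BN 3 to 0.795 for SS 2 and SS13BN 2. The 6 pairs within a strain averaged 0.728 ± 0.0333 and the 3 pairs that shared a replicate number across strains 0.759 ± 0.0318. The other 6 pairs across strains averaged 0.733 ± 0.0489, from 0.654 to 0.789.

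**Figure D2:**
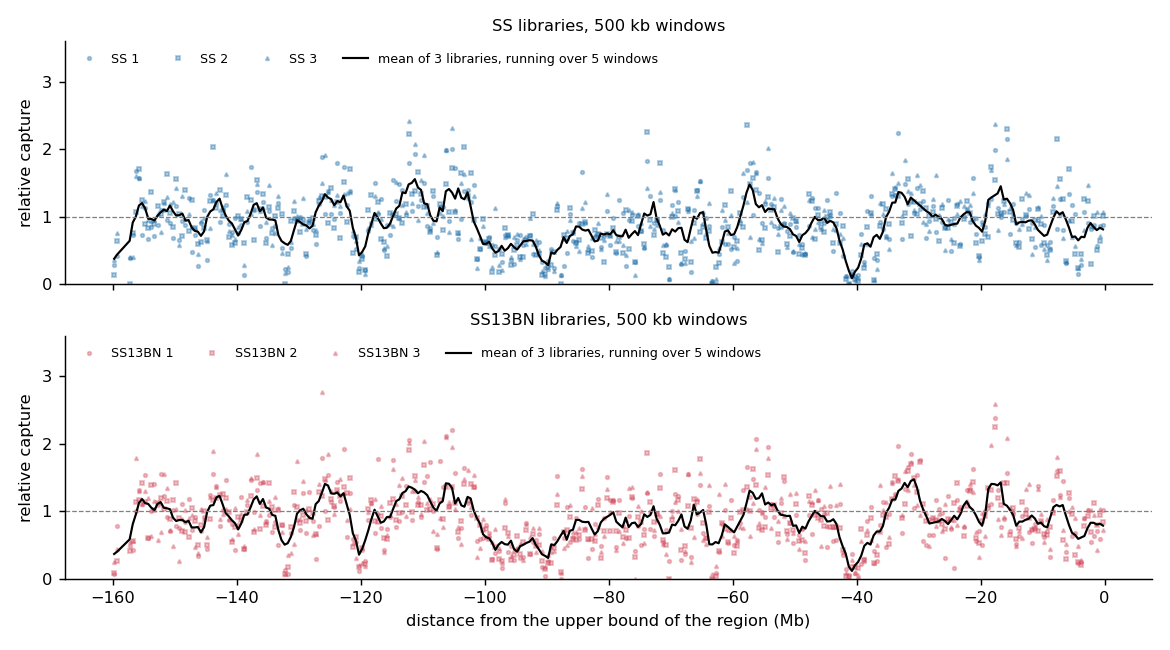
Relative capture in 500 kb windows against distance from the upper bound of the region in Mb, for the SS libraries (top) and the SS13BN libraries (bottom); points are single libraries and the black line is the mean of 3 libraries averaged over 5 neighbouring windows. Both strains dip at the same places, deepest in the low stretch from 118000001 to 120500000, and no point exceeds 2.77.

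No 500 kb window of the region was a contact window in both strains. A contact window had an excess of captured fragments over the library's share in all 3 libraries of a strain. The excess was tested one-sided with the exact binomial distribution, and its p, adjusted by Benjamini-Hochberg over all windows, had to be under 0.05. In SS, 2 of the region's 317 windows met this, where 1.81% of the 5317 windows outside chromosome 13 did. In SS13BN, 1 did, where 1.6% of all windows did. In both strains 0 of 317 did, against 36 of 5317, or 0.677%. With the expectation set by fragment length it was again 0 of 317, against 0.32% of all windows. From 160 Mb onwards on the same chromosome, 12 of 261 windows were contact windows in both. In single libraries of the region, 14, 8 and 10 windows passed in SS 1 to 3 and 10, 13 and 6 in SS13BN 1 to 3, and 284 windows passed in none. The choice of the bound used these levels, so the counts are given as a description.

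The highest window ran from 142000001 to 142500000 and was a contact window in SS13BN alone. Of its 110 fragments, 26, 43 and 25 were captured in SS13BN 1 to 3, and 27, 17 and 31 in SS 1 to 3. Its relative capture was 2.41 ± 0.176 (SD, n = 3) in SS13BN and 1.97 ± 0.412 (SD, n = 3) in SS, and the strains overlapped. It missed the rule in SS only through SS 2, where the exact binomial adjusted p was 0.284. The log2 difference of SS13BN minus SS was 0.30 (SE 0.21, limma adjusted p = 1.0). The window's upper 250 kb carried more of the capture, at 2.52 ± 0.598 (SD, n = 6), than its lower 250 kb, at 1.84 ± 0.319 (SD, n = 6), and was the higher one in 6 of 6 libraries. This difference was not tested.

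SS alone had a contact window between 47500001 and 48000000. Of its 108 fragments, 24, 24 and 31 were captured in SS 1 to 3 and 22, 36 and 19 in SS13BN 1 to 3. Its relative capture was 2.15 ± 0.315 in SS and 1.99 ± 0.0719 in SS13BN (SD, n = 3), with overlapping strains. It failed in SS13BN 3 alone, the library with the fewest captured fragments, at an exact binomial adjusted p of 0.0641. The fit between strains gave a log2 difference of -0.09 (SE 0.20, limma adjusted p = 1.0).

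The other window of SS alone ran from 144000001 to 144500000. There, 29, 25 and 24 of 109 fragments were captured in SS 1 to 3, and 17, 27 and 20 in SS13BN 1 to 3. Relative capture was 2.10 ± 0.227 in SS and 1.70 ± 0.353 in SS13BN (SD, n = 3), and SS13BN 3, at 2.09, lay above SS 3, at 1.85. The log2 difference was -0.31 (SE 0.21, limma adjusted p = 1.0). None of the 3 windows was thus shown to differ between strains.

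Fragments captured in all 6 libraries marked these windows at finer scale. The window at 47500001 had 7 such fragments among 108, and they lay in 3 places. A pair ran from 47564975 to 47581723, 1 short fragment started at 47674599, and 4 lay between 47923232 and 47994260. The window at 144000001 also had 7, of which 3 were consecutive fragments from 144124423 to 144142546. The window at 142000001 had 5, from 142033717 to 142490254, none of them next to each other. In the windows at 47500001, 144000001 and 142000001, 44.4%, 48.6% and 36.4% of the fragments were captured in no library, against 67.6% over the region. These windows were picked for their high capture, so such shares follow from the rule and are a description. Their fragments were also longer, with medians of 3003.5, 2658 and 3680.5 bp against 2088 bp in the region.

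In the region as a whole, 607 of 45929 fragments, 1.32%, were captured in all 6 libraries, and 31058 in none. The share captured in all 6 was 1.48% over all fragments outside chromosome 13 and 2.07% on chromosome 1 from 160 Mb. By segment it ranged from 0.512% between 60 and 70 Mb to 2.60% between 50 and 60 Mb. By number, the most in 100 kb lay from 56900001 to 57000000, where 6 of 42 fragments were captured in all 6 libraries. By share, higher values included 3 of 14 fragments at 34200001, 5 of 26 at 137600001, 4 of 22 at 47900001 and 3 of 20 at 83500001. Between 56900001 and 57000000, 11, 15 and 16 fragments were captured in SS 1 to 3 and 13, 18 and 12 in SS13BN 1 to 3. Fragments captured more often were longer, with a median length of 4556 bp for those in all 6 libraries and 1830 bp for those in none.

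Fragments that separated the strains completely were few. All 3 SS libraries and no SS13BN library captured 35 fragments, 0.0762% of the region. All 3 SS13BN libraries and no SS library captured 46, 0.10%. Over all fragments outside chromosome 13 these shares were 0.0934% and 0.112%. The libraries differed in depth, and SS13BN 2 captured the most fragments; the part of depth in these counts was not tested.

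The region held 18 windows with fewer captured fragments than the library's share gives in all 6 libraries, by the same exact binomial rule on the lower side. These are called low windows below. They made up 5.68% of the region's windows, where 1.9% of all windows outside chromosome 13 were low, and on chromosome 1 from 160 Mb there were 9 among 261. The bound was set with this low level in view, so nothing is read from the comparison. With the expectation set by fragment length, 12 of the 18 windows were still low. These were 3.79% of the region's 317 windows, against 1.45% of all windows. The 18 windows held 6.66% of the region's fragments and 1.33% ± 0.127 (SD, n = 6) of its captures. The other 299 windows had a relative capture of 0.916 ± 0.0154 (SD, n = 6).

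The low windows formed 10 stretches. The longest ran from 118000001 to 120500000 and held 789 fragments. Of these, 11, 5 and 8 were captured in SS 1 to 3 and 10, 16 and 7 in SS13BN 1 to 3. Its relative capture was 0.101 ± 0.0235 (SD, n = 6), and 753 of its fragments were captured in no library. The low window from 121000001 to 121500000 lay just above it, at 0.285 ± 0.0335 (SD, n = 6). Within the stretch, the window at 118500001 had 0 of 174 fragments captured in all 3 SS libraries and in SS13BN 3, and 1 each in SS13BN 1 and SS13BN 2. With 3 fragments taken as the approximate one-sided 95% upper limit for a count of 0, the share there could be up to 1.72%.

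The second longest stretch ran from 39500001 to 41000000. Of its 592 fragments, 21, 15 and 21 were captured in SS 1 to 3 and 16, 29 and 11 in SS13BN 1 to 3, a relative capture of 0.267 ± 0.0311 (SD, n = 6). Its fragments were short, with a median of 586 bp against 2088 bp in the region. With the expectation set by fragment length its level was 0.328 ± 0.0395 (SD, n = 6), still below 1. Of its 2 low windows above 40 Mb, only 1 was called low with that expectation. All fragments under 1 kb formed 1 length class, so differences in length within that class were not adjusted for.

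The stretch from 96500001 to 97500000 had the least capture for its size. Of its 279 fragments, 1, 3 and 2 were captured in SS 1 to 3 and 1, 1 and 3 in SS13BN 1 to 3. The relative capture was 0.0627 ± 0.0430 (SD, n = 6). The window at 72000001 was nearly as low, at 0.0758 ± 0.0615 (SD, n = 6), with 2, 0 and 2 of 123 fragments captured in SS and 0, 2 and 1 in SS13BN. By the same approximate 95% limit, a count of 0 there allows a share of up to 2.44%. The stretches at 27500001 and 89500001 stood at 0.114 ± 0.0785 and 0.110 ± 0.120 (SD, n = 6). Those at 62500001 and 69500001, inside the low 20 Mb, stood at 0.272 ± 0.102 and 0.203 ± 0.0554 (SD, n = 6).

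**Figure D3:**
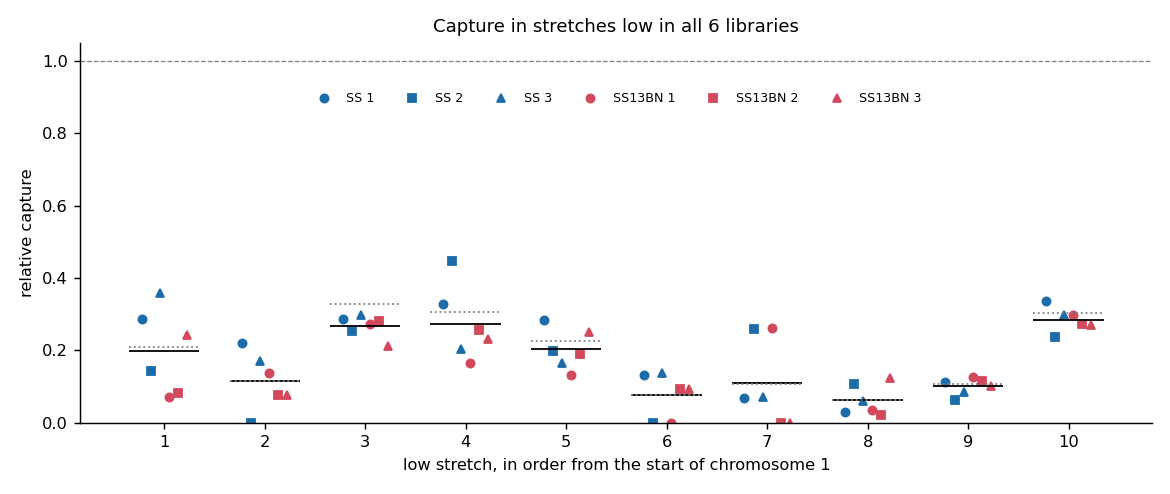
Relative capture of the 10 low stretches in order from the start of chromosome 1; points are the 6 libraries, solid bars their means, and dotted bars the means with the expectation set by fragment length. All points lie at or below 0.447, and those of the 9th stretch, from 118000001 to 120500000, lie at 0.0634 to 0.128.

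Of the 10 runs with the most consecutive fragments captured in no library, 7 overlapped a low window and 3 did not. The first, of 197 fragments, covered 0.581 Mb from 119710586 to 120291269, and the next, of 170 fragments, covered 0.506 Mb from 70289543 to 70795201. The 3 outside low windows ran from 155879626 to 156218954, from 51899359 to 52332061 and from 68929364 to 69159406. The run that starts at 51899359 lies in the segment with the highest capture. Whether reads can be placed uniquely in these runs was not tested.

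In the authors' own scores, 0 fragments of the region had a value above 3 in all 6 libraries, where 3.89% of the fragments outside chromosome 13 had one. A score below -3 in all 6 libraries was found for 5059 fragments, 11.0% of the region, where the share outside chromosome 13 was 3.97%. On chromosome 1 from 160 Mb the shares were 18.1% above 3 and 8.42% below -3. The bound was chosen by these same scores, so the shares are a description and nothing is read from their comparison. Each score is also set against the captured share of its own chromosome, so scores of different chromosomes are not on a common scale. The longest run below -3 ended at 121208732, began at 117723228 and was 3.49 Mb long with 1084 fragments. The runs from 68421858 to 70932078 and from 39237204 to 40881764 were 2.51 and 1.64 Mb long. The lowest scores inside full windows were -7.78, -7.04 and -7.83 in SS 1 to 3 and -6.83, -9.56 and -6.55 in SS13BN 1 to 3, and all 6 fell between 118654286 and 120340450.

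At the high end, the fragment with the best score common to all libraries started at 47770789. It scored 4.11, 3.20 and 5.24 in SS 1 to 3 and 3.03, 3.40 and 2.99 in SS13BN 1 to 3. No single library had its highest score there. SS 1 to 3 peaked at 54377381, 48642429 and 47831632, and SS13BN 1 to 3 at 53532571, 129452474 and 34197500. At 129452474, SS13BN 2 scored 5.99 and SS 2 scored 0.380. At 34197500, SS13BN 3 scored 5.97 and the other libraries 2.14 to 3.47. These peaks are each the maximum of 1 library over 45929 overlapping windows and were not tested.

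The first 250 scores of the chromosome are too low by construction. There the running window reaches past the start of the chromosome, and the score still assumes a full window. The first fragment was listed between -9.33 in SS13BN 2 and -5.64 in SS13BN 1. Over the 251 fragments present, the same captures give -3.69, -3.20 and -2.27 in SS 1 to 3 and -2.72, -5.94 and -3.20 in SS13BN 1 to 3. On that count the first fragment is below -3 in 4 of 6 libraries, not in all. The first full window scored -4.13, -3.63 and -3.88 in SS 1 to 3 and -3.99, -6.73 and -3.42 in SS13BN 1 to 3. It was thus below -3 in each library. In the run below -3 from 0 to 2934762, 250 of 317 fragments had windows that reach past the start. The others of that run had full windows. Part of that run is also a single fragment of 1.88 Mb, from 935495 to 2811473, captured in no library, and for this reason 3 windows of 500 kb had no fragment start. The window from 1 to 500000, counted directly, was still low against the library's share, with 5, 2 and 6 of 141 fragments captured in SS and 1, 2 and 3 in SS13BN. With the expectation set by fragment length its level was 0.209 ± 0.126 (SD, n = 6), but it was no longer called low in all 6 libraries.

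Captured shares were higher in longer fragments up to 8 kb, in the region and outside it. In fragments under 1 kb, 6.09% ± 1.48 (SD, n = 6) were captured, and in those of 4 to 8 kb 14.1% ± 3.29 (SD, n = 6). Over 8 kb the share was 13.7% ± 3.17 (SD, n = 6), lower than at 4 to 8 kb in 4 of 6 libraries. Outside the region it was 16.3% at 4 to 8 kb and 16.7% over 8 kb, higher in 5 of 6 libraries. This difference in pattern was not tested. The region was low in every length class. Its share was 0.878 ± 0.0357 times that outside the region for fragments under 1 kb, and 0.867 ± 0.0235 times for 4 to 8 kb. It was 0.825 ± 0.0252 times for those over 8 kb (SD, n = 6), and the ratio was below 1 in each library and class. With the expectation set by length, the region's relative capture was 0.874 ± 0.0157 (SD, n = 6), against 0.866 without it. Its fragments were almost as long as those of the upper part of the chromosome, with medians of 2088 and 2123 bp.

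Among segments, length and capture went together. Over the 16 segments, median fragment length and relative capture correlated at Pearson 0.835 and Spearman 0.724. With the expectation set by length these were 0.783 and 0.632. The segments share libraries and depth, so this is a description. The segment from 60 to 70 Mb had the shortest fragments, with a median of 1537 bp, and a length-adjusted level of 0.532 ± 0.0485 (SD, n = 6). The highest segment had the longest, with a median of 2398 bp, and an adjusted level of 1.08 ± 0.0449 (SD, n = 6).

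**Figure D4:**
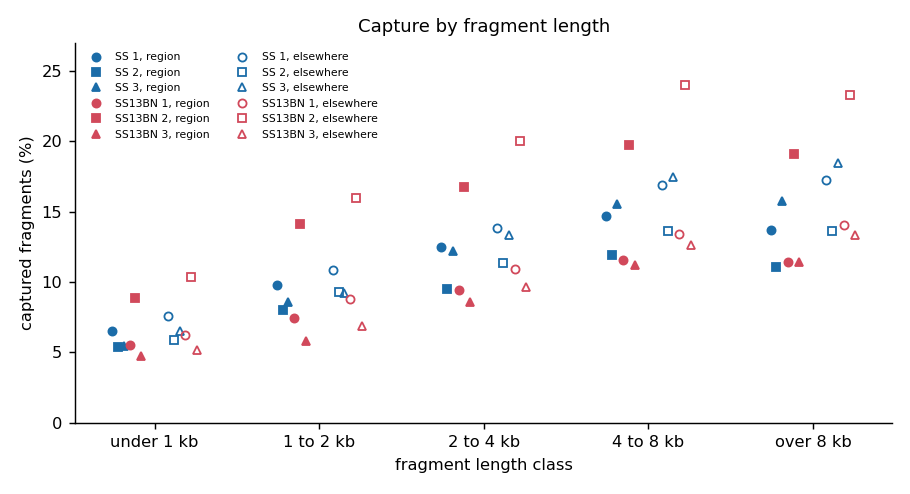
Captured fragments in percent by fragment length class, for the region (filled symbols) and for all other fragments outside chromosome 13 (open symbols), with 1 point per library. In each class and library the region lies below the rest, by a factor of 0.793 to 0.929.

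The share of contacts that fell in the region was not detectably different between strains. Of the captured fragments outside chromosome 13, 5.26%, 5.21% and 5.34% lay in the region in SS 1 to 3 and 5.18%, 5.10% and 5.32% in SS13BN 1 to 3. The means were 5.27% ± 0.0656 and 5.20% ± 0.111 (SD, n = 3), a difference of -0.0666 percentage points. An exact two-sided permutation test gave p = 0.400, where the smallest possible is 0.1. For relative capture the difference was -0.0110, with the same exact p and an adjusted p of 0.400 over both tests.

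No window of the region passed the test between strains. Of 315 windows tested with limma, 0 had an adjusted p under 0.05, as in the whole genome, where it was 0.0% of 5296. An unadjusted limma p under 0.05 was found in 6 of the 315, or 1.90%, against 3.04% of all windows. The strains did not overlap in 22 of 317 windows, or 6.94%, against 7.9% of all windows. Of these 22, SS13BN was higher in 9 and lower in 13. The log2 differences had a median 95% half-width of 0.53. In simulated data over 5296 windows, 42 of 100 windows changed by a factor of 2 were called and 6 of 100 changed by 1.5. The changed windows were drawn from all windows with a mean of at least 5 captured fragments. These rates therefore do not cover sparser windows. Simulated counts were Poisson with 1 added level of noise for all windows, and were not bounded by a window's fragment number.

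The window with the smallest p ran from 128500001 to 129000000. Of its 125 fragments, 19, 9 and 20 were captured in SS 1 to 3 and 23, 37 and 19 in SS13BN 1 to 3. Relative capture was 1.10 ± 0.333 in SS and 1.76 ± 0.0822 in SS13BN (SD, n = 3), and the strains did not overlap. The log2 difference was 0.69 (SE 0.23, limma adjusted p = 1.0), and without SS 2 it was 0.43. Windows higher in SS13BN at 51000001 and 150500001 differed by 0.64 (SE 0.28) and 0.67 (SE 0.33) with the same limma adjusted p. The window at 51000001 differed by 0.43 without SS13BN 1. The lower ones, at 56000001, 67000001 and 26500001, differed by -0.84 (SE 0.37), -0.78 (SE 0.37) and -0.54 (SE 0.26), also at a limma adjusted p of 1.0. The last of these was -0.22 without SS13BN 1.

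Segments of 10 Mb gave narrower intervals and no difference either. Of the 16 segments, 0 passed and 0 had an unadjusted limma p under 0.05. Of all 282 segments 0.0% passed and 0.355% had an unadjusted p under 0.05. The largest difference, in the segment from 60 to 70 Mb, was -0.11 on the log2 scale with a 95% half-width of 0.18 and a limma adjusted p of 0.983. The median half-width was 0.15. Over the 16 segments the intervals reached down to -0.29 and up to 0.23.

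**Figure D5:**
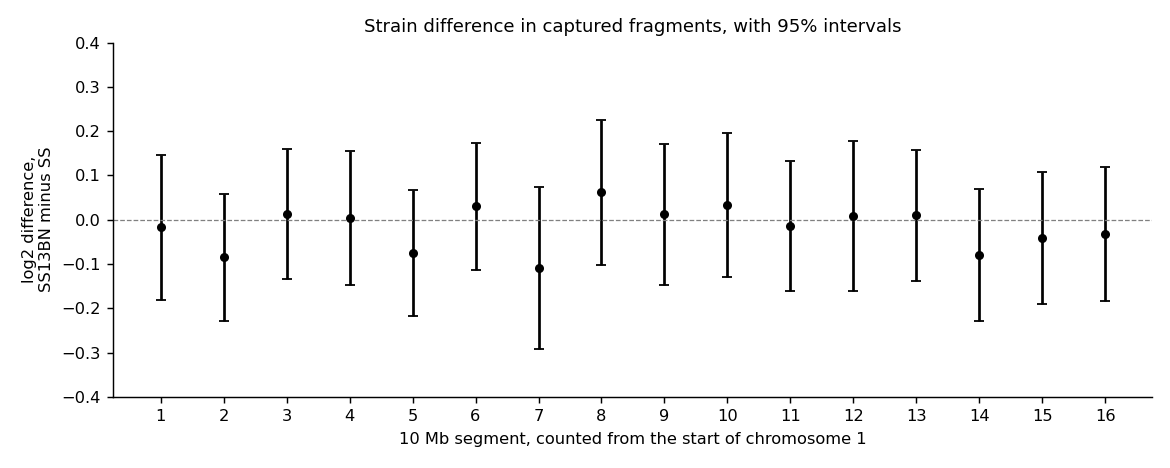
Difference between strains (log2 of scaled captured fragments, SS13BN minus SS) for the 16 segments of 10 Mb, with bars for the 95% interval from the limma fit over 282 segments. All 16 intervals include 0, and the largest difference is -0.11 in the 7th segment.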

How the data were processed

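The tables of 6 libraries (3 SS, 3 SS13BN) were used. The authors deposited 1 score per EcoRI fragment. The submitters' processing notes name CASAVA 1.8 and build rn5, and coordinates are as listed. How reads were aligned and filtered, and which program made the scores, is not given in the sources used here. Both the score's window size and the captured states outside chromosome 13 were solved from the deposited scores, and the rebuilt scores matched within 1e-06. The solver and the fit were checked on simulated data. Windows took fragments by start. limma 3.58.1 (R 4.3.3, intensity trend) was fitted to log2(value + 1), where the value was captured fragments scaled to the mean library total. The filter was a mean of 1 or more, and p-values were adjusted by Benjamini-Hochberg over all windows outside chromosome 13. Changes of low values are understated on that scale. Single values had exact permutation tests. Scripts ran on matplotlib 3.10.9, scipy 1.17.1, pandas 2.3.3, numpy 2.4.6 and Python 3.11.15. Binomial tests and intervals cover counting error only.

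Windows were named by rule: up to 5 contact windows of each strain alone and 12 of both, the 6 lowest with at least 50 fragments, the 3 higher and 3 lower with the smallest p between strains, and the 3 highest and 3 lowest segments. The region, lists and rules were chosen with earlier results of these data known. Alternatives were window size, filter, pseudocount, scaling, expectation, threshold, block and single libraries left out. Gene lists were not applied, since no rn5 annotation was used, and chromosome 13 was not analysed here.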

Additional observations from a re-analysis of the deposited data

How the results depend on the processing

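No strain call appeared under any alternative: 0 windows and 0 segments of the region passed limma in every fit run. Unadjusted p under 0.05 was found in 3 windows (without SS13BN 1) to 11 (without SS13BN 2 or SS13BN 3) with 1 library left out, and in 9 with replicate number as a block. The numbers share no stated batch. Deviations of same-numbered libraries correlated at 0.0907, 0.129 and 0.0842. Among pairs across strains, the only ones compared this way, each library's deviations correlated best with its own number. These correlations are small and were not tested, so no shared batch is read from them. In the window correlations given above, SS 1, SS 3 and SS13BN 1 were instead closest to SS13BN 2. With the block, the share's difference of -0.0666 percentage points had an exact sign-flip permutation p of 0.250, the smallest that 3 pairs allow. The 6 named strain differences kept their direction in all 90 settings run, but several depended on 1 library. That at 128500001 shrank from 0.69 to 0.43 without SS 2. Without SS13BN 1, that at 51000001 shrank from 0.64 to 0.43 and that at 26500001 from -0.54 to -0.22. The share's difference was -0.0171 without SS13BN 2, -0.0310 without SS 3 and -0.126 without SS13BN 3. For relative capture, leaving out 1 library gave -0.0209 to -0.00282. In fragments of 1 to 8 kb the share's difference was -0.146 and that of relative capture -0.0244, both at an exact permutation p of 0.2.

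Counts of contact windows were small and moved with the settings. In SS, the 2 windows became 1 with the expectation by chromosome, and 0 with the expectation by fragment length, at adjusted p under 0.01, in 250 kb windows or in 1 Mb windows. Leaving out 1 library, which also loosens the rule, gave 2 to 6 in SS (6 without SS 2), 2 to 3 in SS13BN (3 without SS13BN 3), and 0 to 1 in both strains, with 1 without SS 2 or without SS13BN 3. The 18 low windows became 9 at adjusted p under 0.01 and 8 in 250 kb windows, and were 18 to 21 with 1 library left out. Fragments below a score threshold of -2 numbered 9264 and below -4 2561. With 1 library left out, 5059 to 5831 lay below -3, and without end windows 4809. Above 2 there were 619 fragments, and above 3 there were 0 to 86 with 1 library left out (26 without SS 2, 76 without SS13BN 1, 86 without SS13BN 3). The cause of these shifts was not tested beyond what each setting changes. Depth limits single windows, and so does their number of restriction fragments, which was 42 to 264 in the region.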
